A study of Mus musculus with 66 samples.

Results

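Blood was compared between mouse pups that had been raised in high oxygen and were sampled on postnatal day 28 (P28, 10 mice) and pups of the same treatment sampled on postnatal day 17 (P17, 12 mice). These 22 mice were taken by their titles from the 66 mice of the series. All were C57BL/6 pups of the oxygen-induced retinopathy model. In it, litters with their nursing dams breathe 75% oxygen from P7 to P12 and room air afterwards. P17 and P28 thus both lie in the recovery period. The usual age of weaning falls between them, but the study names no weaning day and reports that dams remained with their litters. The other groups used here were 10 hyperoxia pups of P12, and normoxia pups kept in 21% oxygen throughout, 11 of P12, 12 of P17 and 11 of P28. Each mouse gave 1 array of blood mononuclear cell RNA against a pooled mouse reference RNA sold for this purpose, 1 mixture for all arrays. Each mouse was sampled once, so the 2 ages are different animals. The labels give neither the litter nor the sex of a mouse. The study divided the pups of its litters between sampling days, but litter could not be entered in the fit, so p-values measure the spread between these mice. The study's description of its hyperoxia pups also has males in the majority at P17 and females at P28. With the ratio of Xist, the RNA of the inactive X chromosome, as a covariate 3733 probes changed against 3539 without it. The titles of the P12 normoxia mice repeat the 10 mouse numbers of the P12 hyperoxia mice, a labelling doubt that touches the P12 values given here.

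The labels assign the blood RNA to Cy5, but the intensities go the other way. On the 22 arrays the α-globin gene Hba-a1 had a log2 intensity of 17.7 to 18.1 in Cy3 and 10.5 to 12.2 in Cy5, and the haem synthesis gene Alas2 15.6 to 17.3 in Cy3 and 9.38 to 10.72 in Cy5. The median correlation between arrays was 0.943 in Cy3 and 0.991 in Cy5, the channel that varied less. Cy3 was therefore read as blood, and every value below is log2(Cy3/Cy5), called the log2 ratio, with a positive change meaning a higher ratio at P28. This direction is the reverse of the one the labels would give. The series design text names retinal cells, while the titles and sources name blood. Of 14 retina marker genes, 8 were not measured above background, and the mean ratio of the other 6 lay between -0.14 and 0.39 in each P17 and P28 hyperoxia mouse. Of those 6, the rod arrestin gene Sag fell by 0.26 (adjusted p = 0.0244), a call that was lost with the scanner software's signals. Red cell transcripts were thus abundant in these mononuclear cell preparations. In such bulk samples, fewer cells of a type and less RNA per cell cannot be told apart.

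In Cy3 the share of probes well above background was 44.7% ± 5.85 (SD, n = 12) at P17 and 46.8% ± 4.10 (SD, n = 10) at P28, a difference of 2.12 percentage points (2-sided permutation test, p = 0.350). P17 replicate 7 stood apart, with 59.0% of its probes above background, the lowest mean erythroid ratio of its group (1.60, group median 3.23) and the lowest Atf5 ratio. The arrays lay on 9 slides, 6 of which held both groups, and were scanned on 2 days (11 and 1 mice at P17, 8 and 2 at P28). P17 replicate 12, the P17 mouse of the second day, had a median log2 ratio of 0.506 before normalisation, against -0.021 to 0.305 on the other 21 arrays.

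Several blood programmes that this comparison turned on are known from other work. When a cell lacks amino acids or accumulates unfolded or oxidised protein, kinases phosphorylate the translation factor eIF2α, general translation slows, and the transcription factor ATF4 is made and turns on genes for amino acid synthesis, transport and tRNA charging. Reticulocytes and their precursors use the haem-regulated kinase among them, Eif2ak1, to match globin synthesis to haem supply. Natural killer cells, mature B cells and the patrolling class of monocytes accumulate in mouse blood in the weeks after birth, and weaning brings new microbial and dietary antigens.

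Of 13514 genes tested, 1455 were higher at P28 (10.8% of all tested) and 590 were lower (4.37%) at a Benjamini-Hochberg adjusted p under 0.05 from limma. Differences were mostly modest: 56 of the higher and 29 of the lower genes passed 2-fold. Counted by probe, 3539 of 27406 changed, 2320 higher and 1219 lower, so 65.6% of the calls were higher. That share depended on scaling: it was 76.1% with the scanner software's own signals or with the deposited ratio matrix, 78.0% with Cy3 alone and 91.1% when arrays were centred by their medians. The median change over all genes was -0.0019. For 58 genes (0.429%) the P17 and P28 values did not overlap.

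**Figure D1:**
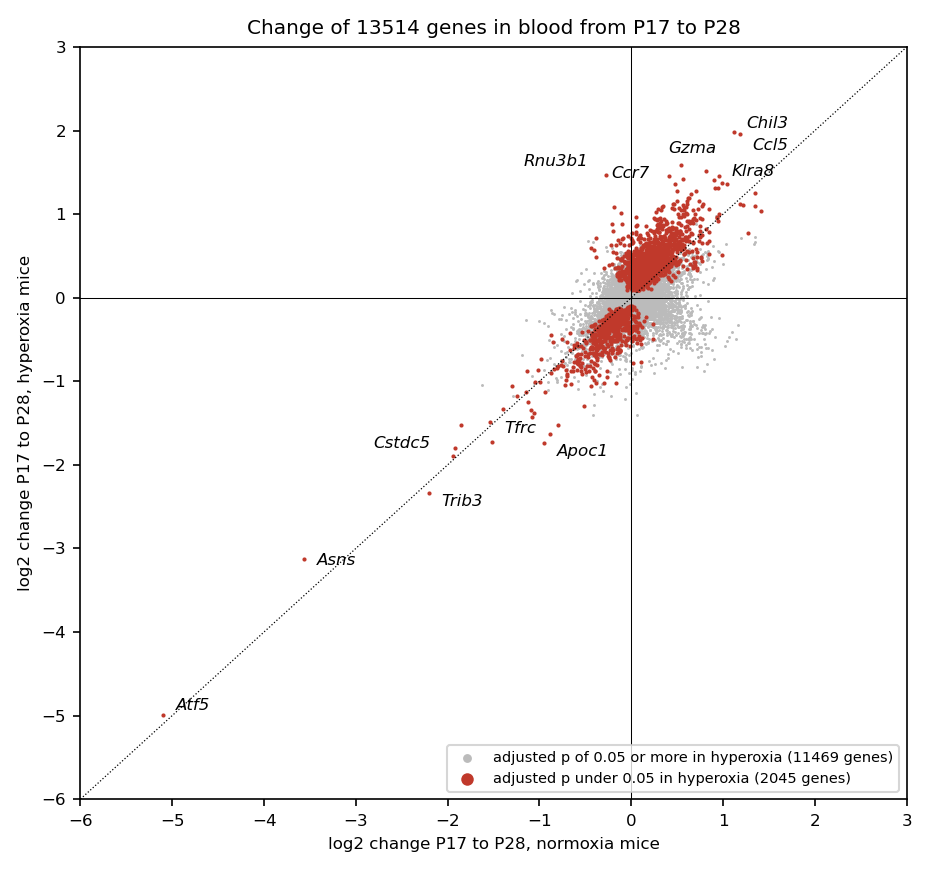
Change in log2 ratio from P17 to P28 for each of 13514 tested genes in normoxia mice (horizontal axis, log2) and in hyperoxia mice (vertical axis, log2), with genes called in hyperoxia in red and a dotted line of equal change. Atf5, Asns and Trib3 lie far to the lower left in both arms (Atf5 at -5.10 and -4.99), while Rnu3b1 lies at -0.27 on the horizontal and 1.47 on the vertical axis.

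The 15 genes that fell most were led by 3 genes of the amino acid response, Atf5, Asns and Trib3. They also held the stefin genes Cstdc5 and Stfa1, Apoc1, the transferrin receptor Tfrc, the carbonyl reductase Cbr2, the mitochondrial folate enzyme Mthfd2, Reep6, the G protein subunit Gng5, the haem enzyme Cpox, the receptor gene Calcrl, the MAP kinase phosphatase Dusp8 and the translation initiation factor Eif3c. Their changes ran from -4.99 to -1.33, and in 5 of them the ages did not overlap. The 15 genes that rose most were Chil3, Ccl5, Gzma, Nr4a1, Rnu3b1, Ccr7, Klra8, Treml4, Klra4, Ifi27l2a, Sirpb1b, Oas1a, Helz2, AW112010 and Cd55, with changes of 1.28 to 1.98, and in 7 of them the ages did not overlap. Every slide that held both ages with a measured spot, 6 at most, gave the same sign for 14 of the 15 falling and 12 of the 15 rising genes. These genes were picked by their change on the same arrays, so agreement in sign is partly built in.

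Atf5, a transcription factor whose translation and transcription both rise with eIF2α phosphorylation, had the strongest change of any gene. Its log2 ratio ran from -0.73 through a median of 2.31 to 3.16 in the 12 P17 mice, and from -3.69 through -3.09 to -2.31 in the 10 P28 mice. Every P28 mouse lay below every P17 mouse. The change was -4.99 ± 0.51 (SE), or 31.7-fold lower at P28 (limma, adjusted p = 2.76e-10), and lay between -6.75 and -4.24 within the 6 slides. At P12 in hyperoxia the ratio ran from -2.54 through -0.76 to 1.55, and Atf5 was higher at P17 than at P12 (2.31 on the log2 scale, limma, adjusted p = 0.00146), a comparison that uses the same P17 mice.

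Asns encodes asparagine synthetase, a textbook ATF4 target. Its ratio ran from -2.97 through 0.25 to 1.46 at P17 and from -4.33 through -3.59 to -1.72 at P28. The groups overlapped only through 2 low P17 mice, and the other 10 lay above the highest P28 mouse. The change was -3.12 ± 0.53 (limma, adjusted p = 4.10e-05), or 8.71-fold.

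Trib3, a pseudokinase induced by ATF4 that feeds back on it, ran from -2.60 through -0.49 to 0.74 at P17 and from -3.52 through -3.09 to -2.65 at P28. The ages did not overlap, and the change was -2.34 ± 0.40 (limma, adjusted p = 4.10e-05). Atf4 itself changed less. Its ratio ran from -0.46 through 1.35 to 2.53 at P17 and from -0.41 through 0.19 to 0.44 at P28, with 11 of 12 P17 mice above the highest P28 mouse. The fall was 1.18 ± 0.24 (adjusted p = 0.000571, limma), and under median centring of the arrays it was 0.81 and no longer called (adjusted p = 0.0699). Ddit3, which encodes the pro-apoptotic factor CHOP, ran from -0.58 through 0.25 to 0.46 at P17 and from -0.78 through -0.61 to -0.23 at P28, a fall of 0.67 ± 0.13 (limma, adjusted p = 0.000168). With the scanner software's signals the changes of Trib3 and Ddit3 were larger, -3.63 and -1.24.

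**Figure D2:**
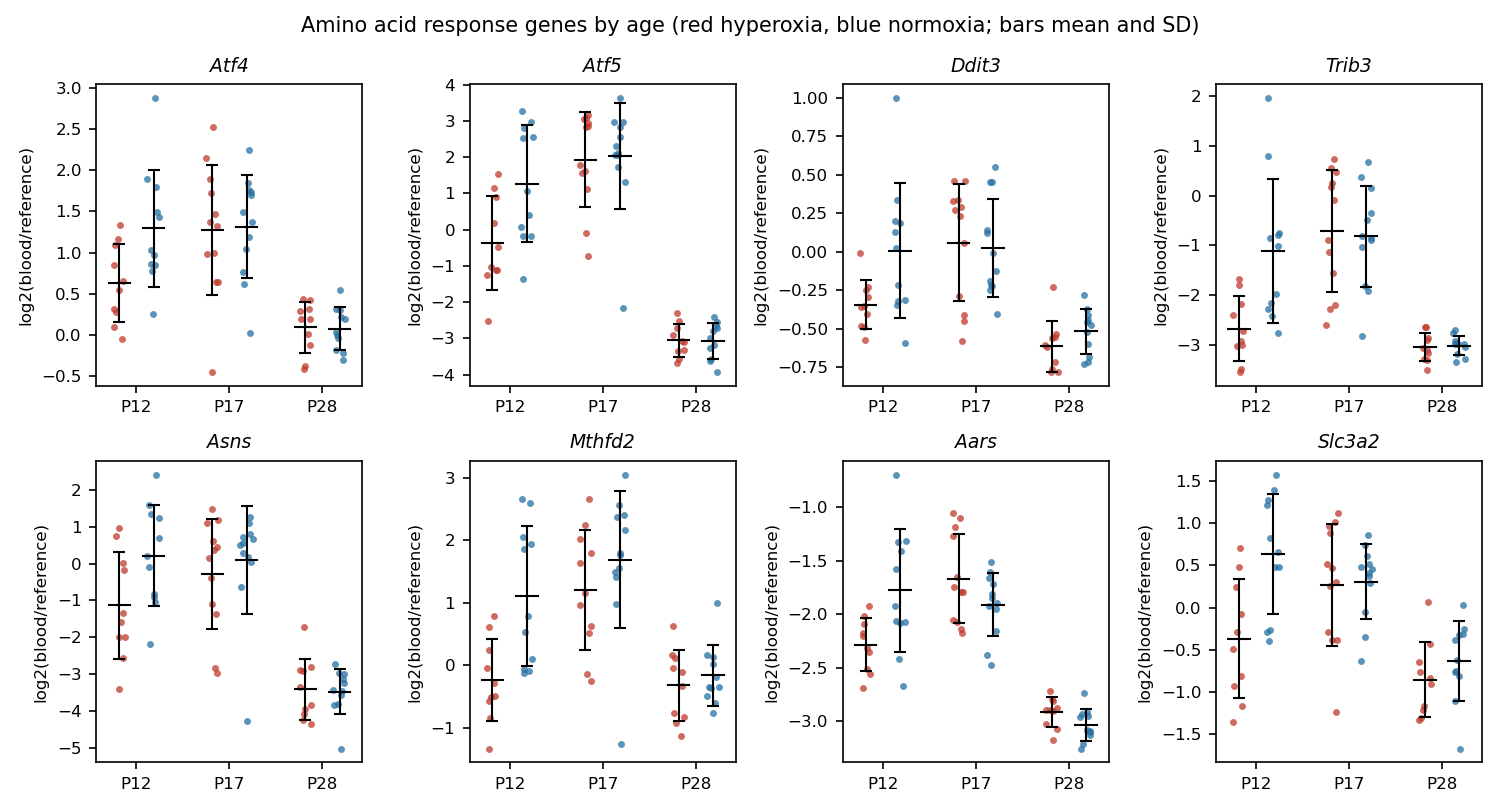
Log2 ratio of blood over reference of 8 amino acid response genes (vertical axes, log2) in each mouse (points) by age, red for hyperoxia and blue for normoxia, with bars for group mean and SD. In hyperoxia Atf5 ran between -0.73 and 3.16 in the P17 mice and between -3.69 and -2.31 in the P28 mice. The P28 normoxia mice were low as well (-3.93 to -2.42).

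Across the whole amino acid and stress response list, 43 of 50 genes were tested. Of these 15 fell (34.9%, against 4.37% of all genes) and 3 rose (6.98%, against 10.8%). The median change was -0.28 against -0.0019 over all genes. Among transcription factors 4 of 7 fell, among them Cebpg, the partner protein of ATF4 (-0.36 ± 0.068). Of 7 genes for amino acid synthesis and one-carbon metabolism 3 fell. Beside Asns these were Mthfd2 and the mitochondrial serine hydroxymethyltransferase Shmt2. Mthfd2 ran from -0.25 through 1.16 to 2.67 at P17 (11 mice, 1 spot left out) and from -1.12 through -0.22 to 0.63 at P28 (change -1.52 ± 0.37). Shmt2 ran from -1.73 through -1.06 to -0.17 and from -2.62 through -2.21 to -1.61, a change of -1.13 ± 0.18, with 8 P17 mice above all P28 mice.

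Of 6 amino acid transporters only Slc3a2, the shared heavy chain of several exchangers, passed the test (-1.12 ± 0.25). Of 13 genes for tRNA charging 5 fell and none rose. Aars, the alanyl-tRNA synthetase, ran from -2.17 through -1.77 to -1.05 at P17 and from -3.17 through -2.89 to -2.72 at P28. Its ages did not overlap, and it fell by 1.24 ± 0.14 (limma, adjusted p = 1.35e-08). The seryl, asparaginyl, glutamyl-prolyl and methionyl synthetases Sars, Nars, Eprs and Mars1 fell by 0.63, 0.76, 0.58 and 0.20. Of the 4 eIF2α kinases, Eif2ak3 (PERK) and Eif2ak4 (GCN2) rose by 0.48 ± 0.12 and 0.37 ± 0.098 (9 P28 mice for Eif2ak4), while Eif2ak1, the haem-regulated kinase, at -0.34 and Eif2ak2 at 0.16 did not pass. With software signals the rises of Eif2ak3 and Eif2ak4 were 0.79 and 0.85. Among the 6 feedback genes, Sesn2, an inhibitor of the mTORC1 growth pathway, fell with Trib3 (-0.58 ± 0.12), while Ddit4, another mTORC1 inhibitor, rose by 0.88 ± 0.26. With median centring 8 members of the list fell and none rose; leaving out any single mouse kept 13 to 15 falling.

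ATF4 binds, with C/EBP partners, a composite element that in many targets reads TGATGNAA, where N is any base. This core was searched on both strands of the 250 bases before each RefSeq start (GRCm38.p6), and no other motif was searched. It occurred before 1056 of 27025 genes of the promoter table (3.91%). Among the list genes, 42 were found there and 10 held the core (23.8%): 2 of 14 genes that fell, 0 of 3 that rose, 5 of 20 tested but not called, and 3 of 5 not tested here. The falling genes with the core were Asns and Aars. They are shown because they joined a large fall to a match, with the 8 bases of the core in capitals, 5′ to 3′ on the strand of the gene. In Asns (chr6:7693210-7693252, minus strand) the core begins 23 bases before the start. In Aars (chr8:111033710-111033757, plus strand) it lies 112 bases before the start and reads on the opposite strand, so its complement is printed.
Asns: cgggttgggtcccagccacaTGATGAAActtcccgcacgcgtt
Aars: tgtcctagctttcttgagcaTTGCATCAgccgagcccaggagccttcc
The windows of Atf5, Trib3, Atf4 and Ddit3 held no such core. A match describes letters in the window and does not show that a factor binds there.

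Among the P17 mice 3 pairs of response genes were examined. Over 12 mice Atf5 and Trib3 correlated at r = 0.954 (rho 0.965, permutation p = 2e-05, the smallest the permutations can give, adjusted p = 0.0001 over 10 relations), and r was 0.980 without the 2 mice farthest from the median of Atf5. Atf4 and Asns correlated at r = 0.904 (rho 0.937, permutation p = 2e-05, adjusted p = 0.0001) and at 0.851 without the 2 farthest. Atf5 and Asns gave r = 0.796 (rho 0.727, permutation p = 0.00494, adjusted p = 0.00988) and 0.699 without the 2 farthest. In the 11 P17 mice of the first scan day the 3 values were 0.954, 0.933 and 0.816. Slides held too few mice of 1 group for a value. In the 10 P28 mice, where all ratios were low, the same pairs gave r = 0.365, -0.401 and 0.514 and none passed the adjusted test (permutation, adjusted p = 0.292, 0.292 and 0.170).

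Red cell signal and the share of probes above background moved with Atf5, the gene of the response for which this was tested. In the P17 mice Atf5 correlated with the mean ratio of 44 erythroid genes at r = 0.939 (rho 0.902, permutation p = 0.0001, adjusted p = 0.000333; 0.827 without the 2 farthest and 0.942 on the first scan day). It correlated with the share of probes above background at r = -0.866 (rho -0.804, permutation p = 0.00126, adjusted p = 0.00315; -0.557 without the 2 farthest and -0.906 on the first scan day). At P28 the corresponding values were 0.642 and -0.663 (permutation, adjusted p = 0.0723 and 0.0625). The erythroid mean itself ran from 1.60 through 3.23 to 3.78 at P17 and from 2.35 through 2.69 to 3.27 at P28. With that mean as a covariate the changes of Atf5, Asns, Trib3 and Atf4 were -4.66, -2.81, -2.14 and -1.08, with the share above background as covariate they were -4.65, -2.85, -2.13 and -1.10, and all 4 remained called.

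In the red cell list itself, 44 genes were tested, 4 rose (9.09%, against 10.8% of all genes) and 4 fell (9.09%, against 4.37%), with a median change of -0.17. The genes that fell were Tfrc, the haem synthesis genes Cpox and Alad, and Add2. Tfrc, which brings transferrin iron into red cell precursors and dividing cells, ran from 0.90 through 2.55 to 3.94 at P17 and from 0.26 through 0.57 to 1.76 at P28 (9 mice). Most P17 mice, 8 of 12, lay above the highest P28 mouse, and the change was -1.72 ± 0.32 (limma, adjusted p = 0.000165). Cpox ran from -0.16 through 1.18 to 3.35 and from -0.51 through -0.09 to 1.36, a change of -1.43 ± 0.32. Alad, an earlier enzyme of the same pathway, fell by 0.86 ± 0.26, and Add2, a membrane skeleton gene, by 0.49 ± 0.17 (limma, adjusted p = 0.0497), a call lost in 10 of 18 settings. None of the 5 adult globin genes passed the test (Hba-a1 -0.20 ± 0.38, adjusted p = 0.764), nor did Alas2 (-0.17). The embryonic globins Hbb-y and Hbb-bh1 rose by 0.43 ± 0.10 and 0.35 ± 0.068 from low ratios, and by 1.03 and 2.29 with software signals. These values are uncertain, since the probes may share targets with the abundant adult globins, which was not tested. Bcl11a, which silences embryonic and fetal globin and is also a B cell factor, rose by 0.95 ± 0.19, and the glucose transporter Slc2a1 by 0.45 ± 0.11. Leaving out P17 replicate 3 or replicate 7 gave 7 falling members, and median centring gave 2.

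The natural killer and cytotoxic genes formed the list with the highest share of rising members, 14 of 18 (77.8%) against 10.8% of all genes, with none falling and a median change of 0.63. The mean ratio of these genes per mouse ran from 0.41 through 0.83 to 1.27 at P17 and from 1.21 through 1.45 to 2.07 at P28, so that the groups barely touched. The P12 hyperoxia mice (0.57 to 1.15) lay in the P17 range.

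Ccl5, a chemokine stored by cytotoxic lymphocytes, ran from -0.01 through 1.30 to 3.06 at P17 and from 2.19 through 3.17 to 3.98 at P28. It rose by 1.96 ± 0.33, or 3.90-fold (limma, adjusted p = 3.49e-05), with 6 P28 mice above the highest P17 mouse and the same sign on 5 of 6 slides. Gzma, a granule protease, ran from 2.10 through 3.46 to 4.83 and from 4.0 through 4.80 to 6.19, a rise of 1.59 ± 0.36 with overlap. With the scanner software's signals it was 0.79 and not called (limma, adjusted p = 0.0929).

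Among the receptor genes, Klra8, which encodes the activating receptor Ly49H, ran from 0.05 through 0.36 to 0.77 at P17 and from 1.22 through 1.79 to 2.54 at P28. The ages did not overlap, and the rise was 1.46 ± 0.17 (limma, adjusted p = 1.43e-08). Klra4, a related receptor gene outside the list, gave 1.41 ± 0.19 with no overlap, and since Ly49 genes are near copies of each other the 2 probes may share targets. The size depended on the signal used, with rises of 3.27 and 2.54 from the software's signals. Il2rb, the receptor chain through which IL-15 keeps natural killer cells alive, ran from 1.14 through 1.95 to 2.81 and from 2.35 through 3.11 to 4.09 (1.19 ± 0.24), but with the software's signals its rise was 0.56 and not called (limma, adjusted p = 0.348). Klrd1 (CD94), the granule protein gene Nkg7, Gzmb, Klrb1c (NK1.1), Fasl and the pore-forming Prf1 rose by 1.10, 0.92, 0.82, 0.76, 0.55 and 0.39. The lineage factor genes Eomes (0.23) and Tbx21 (0.34) did not pass. Between 12 and 15 members rose under each of the 10 settings tried for the lists and without any single mouse.

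**Figure D3:**
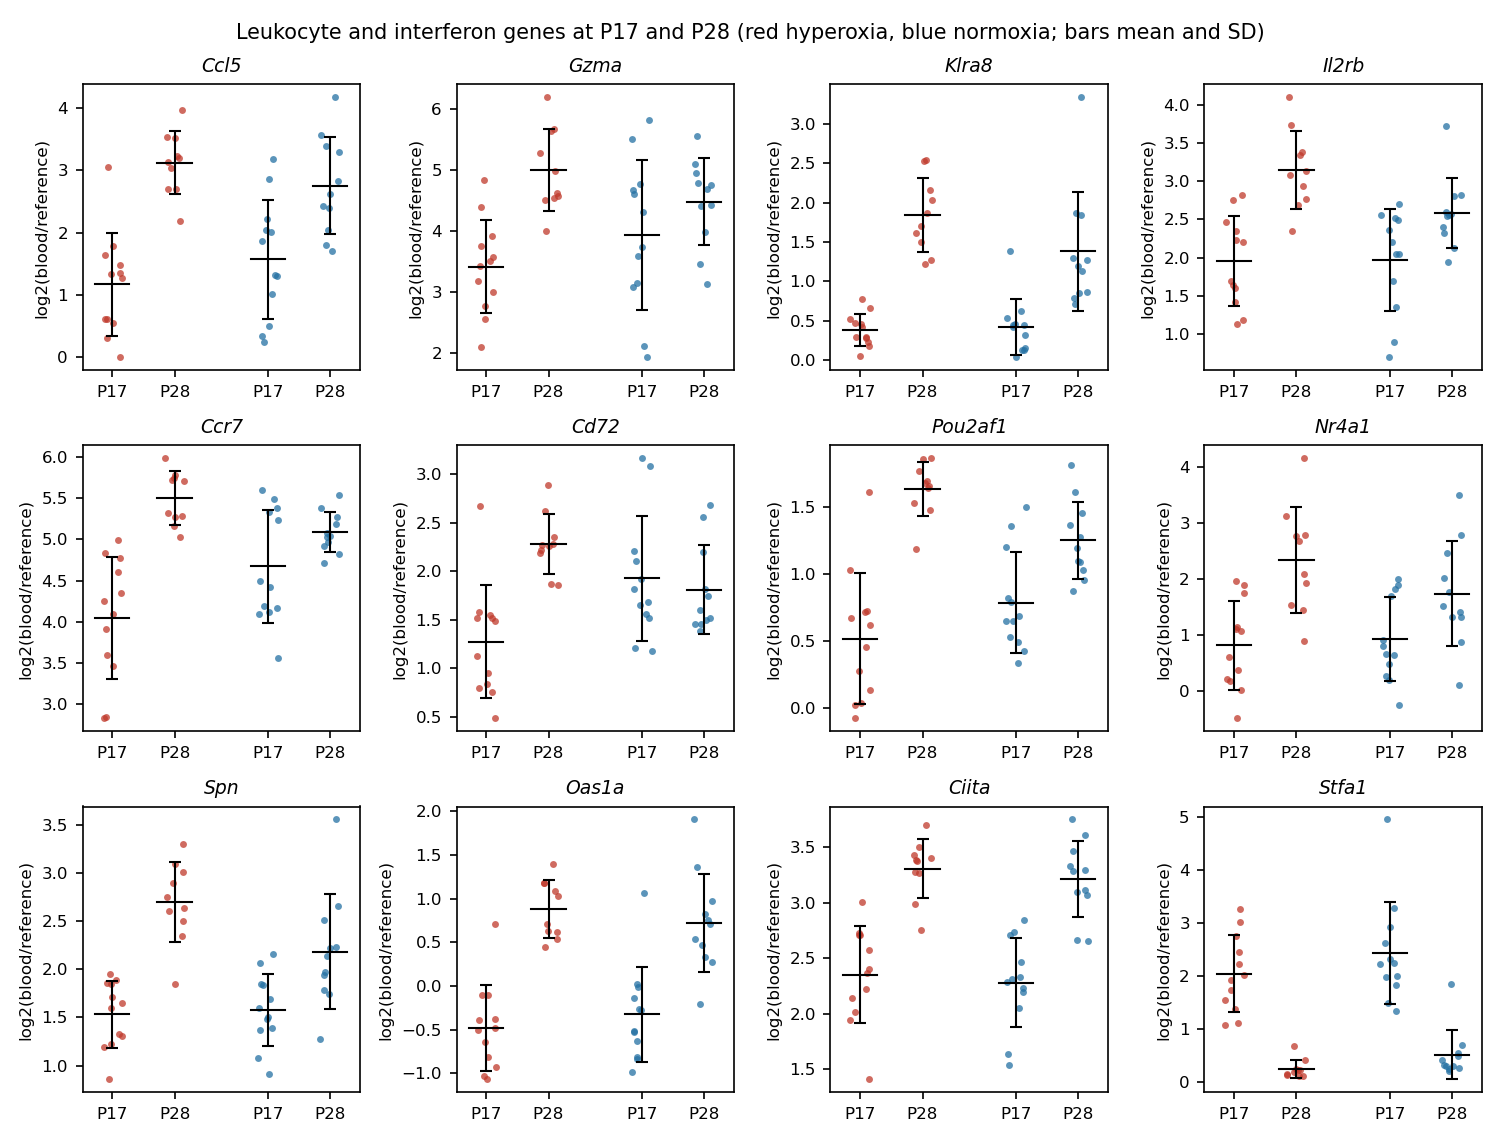
Log2 ratio of blood over reference in each mouse (points) for 12 natural killer, lymphocyte, monocyte, interferon, antigen presentation and stefin genes at P17 and P28, red for hyperoxia and blue for normoxia, with bars for group mean and SD. In hyperoxia Klra8 (highest P17 mouse 0.77, lowest P28 mouse 1.22) separates the ages upwards and Stfa1 (lowest P17 mouse 1.08, highest P28 mouse 0.68) downwards.

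Of 23 monocyte genes 8 rose (34.8%, against 10.8% of all genes) and none fell, with a median change of 0.29. The rising members included some of the genes that mark patrolling, nonclassical monocytes, while Ear2, Adgre4 and Pou2f2 of the same list were not called. Nr4a1, the transcription factor that class requires, ran from -0.48 through 0.84 to 1.97 at P17 and from 0.89 through 2.39 to 4.16 at P28, a rise of 1.52 ± 0.35 (limma, adjusted p = 0.00226). Treml4 ran from 0.61 through 1.81 to 2.69 and from 2.09 through 3.33 to 4.06 (1.42 ± 0.29), with 8 of 10 P28 mice above all P17 mice, but with the software's signals its rise was 0.72 and not called (limma, adjusted p = 0.156). Spn (CD43), which T cells also carry, ran from 0.86 through 1.62 to 1.95 and from 1.84 through 2.69 to 3.29 (1.16 ± 0.18), with 9 of 10 above. The fractalkine receptor Cx3cr1, the Fc receptor Fcgr4 and Ace rose by 1.06, 0.59 and 0.41. The near copies Ly6c2 and Ly6c1, which mark classical monocytes and some lymphocytes and whose probes cannot be taken as separate, both rose by 1.12. The pan-monocyte receptor Csf1r (0.25 ± 0.28), Ccr2 (0.59 ± 0.22) and Cd14 (-0.50 ± 0.41) did not pass the test. Nr4a1 is also an immediate early gene that many cell types switch on when handled or activated. Sirpb1b, from a family of myeloid receptors and outside the list, was also among the 15 genes that rose most (1.36 ± 0.28).

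Of 26 B cell genes 15 rose (57.7%, against 10.8% of all genes) and none fell. Their median change of 0.78 was the highest of the lists examined. All 4 rising transcription factors of 5 (Pou2af1, Bach2, Ebf1 and Spib) act within the B lineage, but with the software's signals Spib gave 0.25 and was not called (limma, adjusted p = 0.556). Pou2af1 ran from -0.08 through 0.54 to 1.61 at P17 and from 1.19 through 1.67 to 1.87 at P28 (1.12 ± 0.20, limma, adjusted p = 9.84e-05). Bach2, which holds B cells back from becoming plasma cells, ran from 0.42 through 0.95 to 1.23 and from 1.57 through 1.85 to 2.38, without overlap (1.01 ± 0.15, limma, adjusted p = 3.61e-06; 1.58 with software signals).

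Signalling and surface genes moved with them: 5 of 9 in each role rose. Cd72, an inhibitory coreceptor, ran from 0.48 through 1.31 to 2.67 and from 1.86 through 2.27 to 2.89 (1.01 ± 0.27). The adaptor Blnk rose by 1.03 ± 0.24, the complement receptor Cr2 (CD21) by 0.91 ± 0.16 (1.83 with software signals) and Tnfrsf13c, the receptor for the survival factor BAFF, by 0.86 ± 0.27. The call of Tnfrsf13c was lost in 4 of 18 settings, among them software signals (0.83, limma, adjusted p = 0.0733) and scan day 1 alone. Fcer2a (CD23) gave 1.25 ± 0.20, but its sign turned to -0.08 with the scanner software's signals, so that no direction is given for it. Cd79a (0.22 ± 0.16) and Ms4a1 (0.78 ± 0.28, adjusted p = 0.0530) did not pass. None of 8 plasma cell and antibody genes passed the test. With software signals or the deposited matrix 9 B cell genes rose.

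In the same hyperoxia arm 7 of the 26 B cell genes had fallen from P12 to P17 and 1 had risen, with the P17 mice in common. Over all genes 9.67% fell and 6.35% rose in that comparison. Blnk, Cd72, Tnfrsf13c and the pre-B gene Vpreb3 changed by -1.07, -1.03, -1.15 and -1.10 from P12 to P17 and by 1.03, 1.01, 0.86 and 0.80 from P17 to P28, although the rise of Vpreb3 was 0.43 and not called with software signals (limma, adjusted p = 0.215). A high or low P17 group would move both comparisons in opposite directions.

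T cell genes moved less. Of 28 tested 8 rose (28.6%, against 10.8% of all genes) and none fell, with a median change of 0.16. Of the 14 receptor and signalling genes only Cd5 passed (0.75 ± 0.24), and Cd3e (0.07), Cd4 (-0.21) and Cd8a (-0.02) did not. Cd5 lost its call in 6 of 18 settings, among them slide as a block and software signals (0.67, limma, adjusted p = 0.121). The risers belonged mostly to homing and survival, with 5 of 8 genes. Ccr7, which guides naive T cells and dendritic cells into lymph nodes, ran from 2.82 through 4.17 to 4.99 at P17 and from 5.03 through 5.52 to 5.99 at P28. No P28 mouse fell within the P17 range, and the rise was 1.46 ± 0.27, or 2.75-fold (limma, adjusted p = 0.000106), against 0.89 with software signals. Il7r, the IL-7 receptor, and Lef1, a factor of naive T cells, rose by 0.75 ± 0.25 and 0.62 ± 0.20, both without a call with the software's signals (0.18 and 0.56). The T cell count fell to 5 without P17 replicate 11, P28 replicate 2 or P28 replicate 4, and to 3 of 28, near the share of all genes, with software signals or the deposited matrix.

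Antigen presentation genes rose in both classes. For class I, 7 of 15 rose (46.7%, against 10.8% of all genes) and none fell (median 0.39). Nlrc5, the activator of class I genes, ran from 0.12 through 0.75 to 1.09 and from 1.19 through 1.72 to 2.23, without overlap (1.01 ± 0.13, limma, adjusted p = 9.89e-08), although 1 other probe had the opposite sign. B2m, the light chain of class I molecules, ran from -0.56 through 1.13 to 1.77 and from 1.50 through 2.08 to 2.65 (1.10 ± 0.23), H2-K1 rose by 0.82 ± 0.18 and the peptide transporter Tap1 by 0.77 ± 0.11. For class II, 7 of 11 rose (63.6%, against 10.8% of all genes) and none fell (median 0.62). Ciita, the activator of class II genes, ran from 1.41 through 2.38 to 3.00 and from 2.75 through 3.38 to 3.70 (0.96 ± 0.19), and the peptide-editing genes H2-Ob and H2-Oa rose by 1.08 ± 0.22 and 0.86 ± 0.16. With the software's signals the 3 rises were 0.16, 0.39 and 0.51 and none was called. The structural genes were less uniform, with H2-Aa at 0.73 ± 0.25 (limma, adjusted p = 0.0397; 0.18 and not called with software signals) and H2-Ab1 at -0.04 ± 0.20. With software signals or the deposited matrix 2 class II genes rose, and with median centring 3 class II and 4 class I genes.

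Interferon-inducible genes rose in 12 of 26 cases (46.2%, against 10.8% of all genes) with none falling (median 0.41). Ifi27l2a ran from 0.80 through 1.57 to 2.27 at P17 and from 2.61 through 3.01 to 3.48 at P28, without overlap (1.38 ± 0.18, limma, adjusted p = 2.76e-07). Rtp4 ran from -0.25 through 0.33 to 0.80 and from 1.05 through 1.40 to 1.63, again without overlap (1.07 ± 0.13). Oas1a and Oas2, sensors of double-stranded RNA, rose by 1.36 ± 0.20 and 0.94 ± 0.16. Outside the list, the interferon-inducible Helz2 and the long noncoding RNA AW112010 rose by 1.32 ± 0.18 and 1.31 ± 0.18, each without overlap, though 1 other Helz2 probe had the opposite sign. Isg15 (-0.31 ± 0.41) and Ifit1 (0.55 ± 0.23), usually among the steepest responders, did not pass. The mean of the list per mouse ran from 0.39 to 1.15 at P12, from 0.78 to 1.61 at P17 and from 1.45 to 1.90 at P28. With the erythroid mean as covariate 19 genes rose. Cd55, which protects cells from complement, completed the genes without overlap among the 15 that rose most (1.0 through 2.20 to 2.77 at P17, 2.78 through 3.24 to 3.89 at P28, 1.28 ± 0.23).

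**Figure D4:**
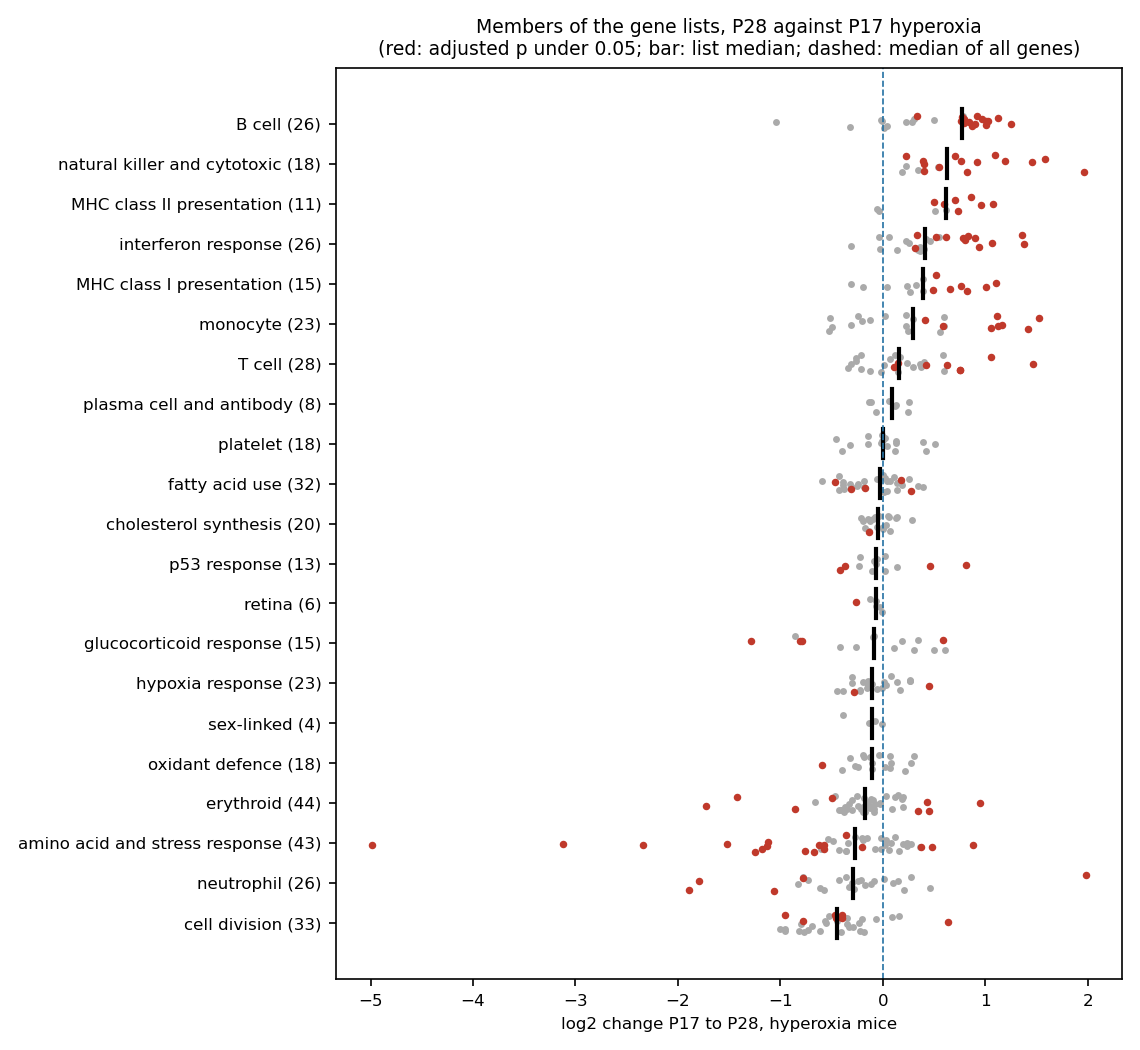
Change in log2 ratio from P17 to P28 in hyperoxia (horizontal axis) of every tested member (points, red where the adjusted p is under 0.05) of each gene list, with the list median as a black bar, the number tested in brackets and the median of all genes dashed. The B cell list has the highest median (0.78) and the cell division list the lowest (-0.45), and the stress list reaches furthest left (Atf5 at -4.99).

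Of 26 neutrophil genes tested 4 fell (15.4%, against 4.37% of all genes) and 1 rose (3.85%, against 10.8%), with a median of -0.29. The stefins, small cysteine protease inhibitors of immature myeloid cells, fell furthest. Cstdc5 ran from 1.12 through 2.13 to 3.58 at P17 and from 0.08 through 0.24 to 0.72 at P28, and Stfa1 from 1.08 through 1.98 to 3.27 and from 0.12 through 0.20 to 0.68. Neither overlapped, and the changes were -1.89 ± 0.37 and -1.80 ± 0.36 (limma, adjusted p = 0.000292 and 0.000399). Cstdc5, Stfa1 and Stfa2 (-1.06 ± 0.35) are near copies whose probes may share targets, so these may be 1 signal. With software signals the changes of Cstdc5 and Stfa1 were -4.09 and -4.41. They had already fallen by 2.16, 2.12 and 1.97 from P12 to P17. Chil3, a chitinase-like secreted protein of neutrophil precursors and some monocytes, had the highest rise of any gene in this processing, from -1.93 through -0.54 to 0.90 at P17 to 0.15 through 1.39 to 3.15 at P28 (1.98 ± 0.41, limma, adjusted p = 0.000571), with 8 of 10 P28 mice above all P17 mice. With software signals its rise was 2.23, below that of Klra8. Retnlg (-0.43 ± 0.38) did not pass. The falling count was 2 without P17 replicate 7 or P28 replicate 1, 2 or 9, and 8 with software signals.

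Platelet genes showed no call among 18 (median 0.01, Pf4 0.02 ± 0.46), with list means of 1.83 to 5.26 at P17 and 3.01 to 5.03 at P28. Apoc1, an apolipoprotein of macrophages and liver, ran from 1.12 through 2.90 to 5.29 and from 0.22 through 1.62 to 2.33 (-1.74 ± 0.48).

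**Figure D5:**
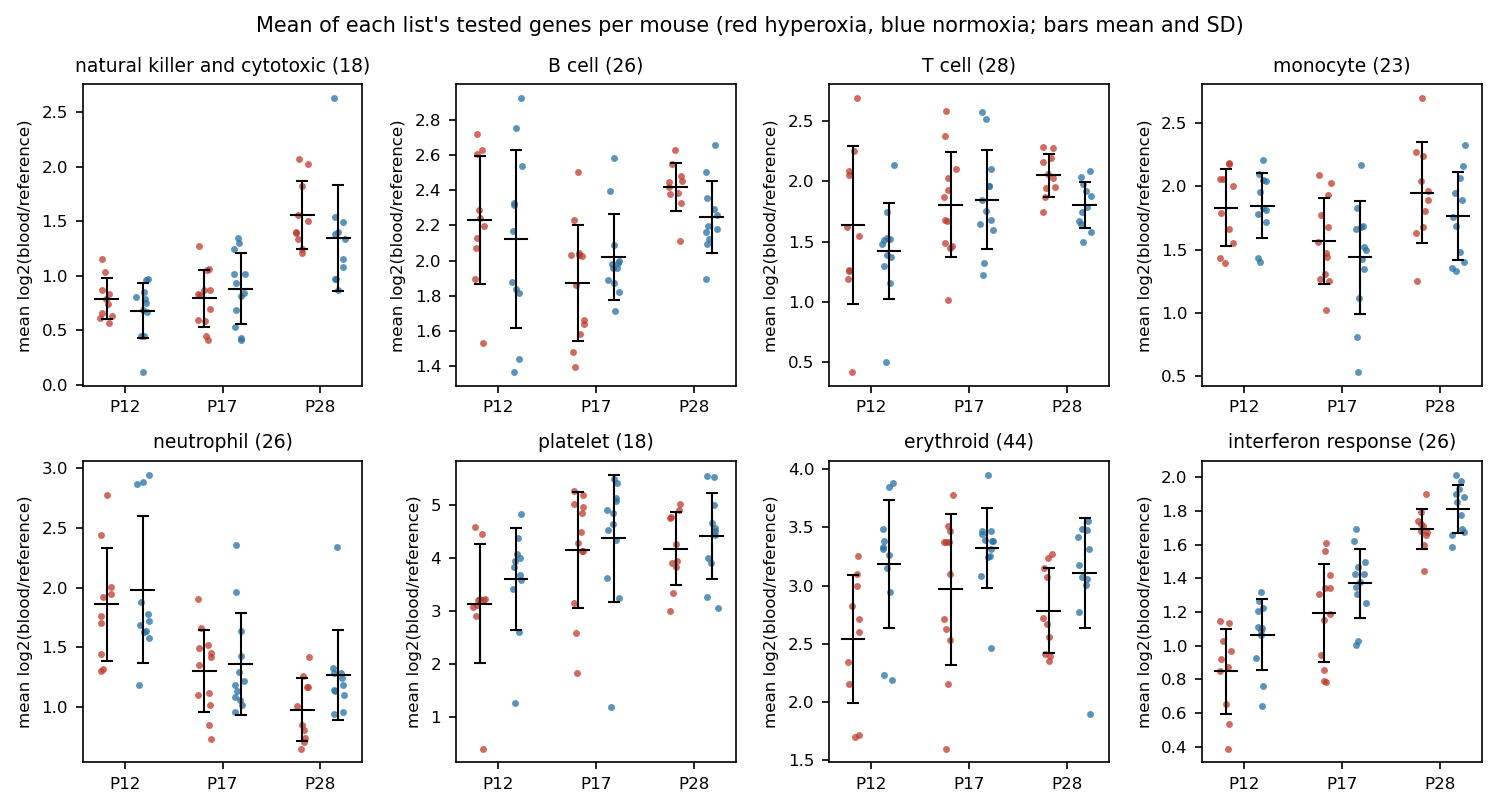
Mean log2 ratio of blood over reference over the tested members of 8 gene lists (vertical axes, number of genes in brackets) in each mouse (points) by age, red for hyperoxia and blue for normoxia, with bars for group mean and SD. In hyperoxia the natural killer and cytotoxic mean lies between 0.41 and 1.27 at P17 and between 1.21 and 2.07 at P28, and the erythroid mean between 1.60 and 3.78 and between 2.35 and 3.27.

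Of 33 cell division genes 7 fell (21.2%, against 4.37% of all genes) and 1 rose (3.03%, against 10.8%), with a median of -0.45. The cyclin gene Ccnb1 (-0.78 ± 0.25), the ribonucleotide reductase subunit Rrm2 (-0.95 ± 0.33) and the spindle motor Kif11 (-0.39 ± 0.11) fell, though all 3 lost their call with software signals (limma, adjusted p = 0.0812, 0.0610 and 0.218), and the replication licensing gene Cdt1 rose by 0.63 ± 0.21, a call that was lost in 12 of the 22 fits with 1 mouse left out, as that of Rrm2 was in 11. Top2a (-1.0 ± 0.41, adjusted p = 0.0911) and Mki67 (-0.69 ± 0.25, adjusted p = 0.0611) did not pass. This count hung on single mice and on scaling: 16 fell without P17 replicate 1, 13 without P17 replicate 4 or P28 replicate 8, 11 without P17 replicate 10 or P28 replicate 5, 4 without P17 replicate 3, 3 without P17 replicate 6, P17 replicate 12 or P28 replicate 4, and none with median centring.

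In the stress and metabolic lists counts were small. The medians of the glucocorticoid, p53, oxidant defence, hypoxia, fatty acid and cholesterol lists were -0.08, -0.06, -0.11, -0.10, -0.03 and -0.04. The metal-binding metallothionein genes Mt1 and Mt2 fell by 1.29 ± 0.33 and 0.81 ± 0.22, and with Fkbp5 (-0.79 ± 0.25) they made up the 3 falling genes (20%, against 4.37% of all genes) of 15 glucocorticoid-responsive ones, of which Tsc22d3 rose (0.58 ± 0.16). Fkbp5 lost its call in 6 of 18 settings, among them software signals, and none of the list was lower with median centring. In the p53 list Trp53 and its inhibitor gene Mdm2 fell by 0.42 and 0.37 and the targets Sesn1 and Bbc3 rose by 0.81 and 0.46, so that 2 of 13 (15.4%) moved each way, against 10.8% higher and 4.37% lower of all genes, and none was lower with median centring. Of 18 oxidant defence genes only Sod1, the cytosolic superoxide dismutase, fell (5.56%, against 4.37% of all genes), by 0.59 ± 0.12, and none rose. Hypoxia genes gave 1 call each way among 23 (4.35%, Slc2a1 higher, Egln3 lower), and cholesterol synthesis 1 lower among 20 (5%, Insig1, -0.13). Over all genes 10.8% were higher and 4.37% lower. The calls of Egln3 and Insig1 were lost in 10 and 11 of the 17 settings that tested them. Of 32 fatty acid genes 2 were higher (6.25%, against 10.8% of all genes) and 3 lower (9.38%, against 4.37%), with changes no further from 0 than -0.47 (Angptl4, not called with software signals). None was lower with software signals, the deposited matrix, Cy3 alone or median centring, or without P17 replicate 12, P28 replicate 1 or P28 replicate 4. None of 4 sex-linked genes was called.

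The same ages were compared in the mice kept in room air, which share no mouse with the hyperoxia arm. There 536 genes rose (3.97%) and 234 fell (1.73%). In normoxia the share of probes above background was 6.31 percentage points higher at P28 (permutation test, p = 0.00372). Scan day was unevenly spread there, with 8 of 12 P17 but 1 of 11 P28 mice on the second day, and among the 4 and 10 mice of the first day the difference was 4.69 points (exact permutation test, p = 0.0120). Of the 2045 genes called in hyperoxia 1867 had the same sign in normoxia, and 431 were called in both arms, which is 21.1% of the hyperoxia and 56.0% of the normoxia calls. Across genes the changes in the 2 arms correlated at r = 0.551 (rho 0.477), a description over genes, which are not independent.

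Atf5 ran in normoxia from -2.15 through 2.21 to 3.62 at P17 and from -3.93 through -2.99 to -2.42 at P28, a change of -5.10. The difference between the arms was 0.11 (95% interval -1.31 to 1.53). For Asns, Trib3, Atf4 and Ddit3 the normoxia changes were -3.57, -2.20, -1.24 and -0.54, and the differences between arms 0.44 (-1.04 to 1.93), -0.14 (-1.25 to 0.98), 0.06 (-0.62 to 0.74) and -0.13 (-0.48 to 0.22). In normoxia 12 of 43 genes of the stress list fell, against 1.73% of all genes. The natural killer, B cell and interferon lists gave 8 of 18, 5 of 26 and 13 of 26 rising genes, against 3.97% of all genes. Of the 28 T cell genes none rose and 1 fell in normoxia (median -0.09, against 8 rising and 0.16 in hyperoxia). Of the 26 neutrophil genes 3 fell there (median 0.10, against -0.29 in hyperoxia). Of the 15 genes that fell most in hyperoxia 11 were called in normoxia, and of the 15 that rose most 8 were.

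A direct test of the difference in change between the arms called none of the 13514 genes (limma, 1355 at an unadjusted p under 0.05), and none in any list, but with the share of probes above background as a covariate 3087 probes were called and with array weights 4871. Counted by probe, 2717 differed at an unadjusted p under 0.05, 1282 with scan day as a block and 936 on scan day 1 alone, where normoxia had 4 P17 mice. In the test as designed, a call in only 1 arm does not show that the arms differ. The genes nearest to a difference were Ccser2, Zbtb2 and Tgif1 in the direction of hyperoxia and Krtap1-4, Gbf1 and Brd3 in the other. Ccser2 ran from -0.45 through -0.34 to -0.11 at P17 and from 0.16 through 0.33 to 0.51 at P28 in hyperoxia, without overlap, while the normoxia medians were -0.12 and 0.11. The difference in change was 0.47 (95% interval 0.29 to 0.66, limma, adjusted p = 0.0603). Tgif1, a repressor of TGF-β signalling, gave a difference of 0.98 (0.51 to 1.45, adjusted p = 0.212), with P17 values of -1.50 through -0.89 to -0.52 and P28 values of -0.52 through 0.01 to 0.30. Rnu3b1, a U3 small nucleolar RNA, ran from -2.02 through -1.62 to -1.33 at P17 and from -2.0 through -0.55 to 2.11 at P28 in hyperoxia (1.47 ± 0.31) and changed by -0.27 in normoxia. The difference was 1.74 (0.88 to 2.60, adjusted p = 0.212), and its P28 hyperoxia mice were the most scattered of the 6 groups it was measured in. Ccr7, with 1.46 and 0.41, differed by 1.05 (0.30 to 1.79, adjusted p = 0.373).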

How the data were processed

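The authors hybridised blood RNA and a universal reference RNA to Agilent SurePrint G3 mouse arrays. Per the file headers, spots were extracted with Feature Extraction 10.7.3.1. The deposited scanner files give the intensity and local background of both channels at 62976 spots, with flags for spots well above background. Their deposited table of log2 ratios followed log2(Cy3/Cy5) on every array and served as an alternative. Blood RNA was taken to be in Cy3, against the labels.

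Background was corrected with normexp (offset 50) and arrays were normalised by loess (limma 3.58.1, R 4.3.3), with control spots and outlier flags at weight 0. Spots of a probe were averaged. Of 56605 probes, 32994 were named through RefSeq (22911 genes). Probes well above background on at least 0.5 of the arrays of P17 or P28 hyperoxia were tested in 1 limma fit of all 66 arrays in 6 groups, with Benjamini-Hochberg adjustment at 0.05. The difference between arms was the interaction of age and oxygen in that fit. Where a gene had several probes, the one brightest in Cy3 on average stood for it. No spot was saturated, and the number of arrays limits the precision. Correlations and the share of probes above background were tested with 100000 permutations (scipy 1.17.1). The promoter search used the RefSeq promoter table.

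Named were the 15 genes that changed most in each direction, up to 4 list members in each direction (more where a list has roles), Atf4, Atf5, Asns, Trib3 and Ddit3, and the 3 genes in each direction nearest to a difference between arms. The values of some list members are not reported here. Other list members were named after their values were seen. The comparison, the members and the gene lists were chosen with earlier results of these data known. The study's methods name a moderated test in other software. Alternatives changed the signals, background correction, normalisation, channels, filter, samples, weights, slide and scan day blocks, covariates, and left out each array.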

Additional observations from a re-analysis of the deposited data

Results flagged for a closer look

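Among the 114 named genes, 9 had 1 P28 hyperoxia mouse far from the other 9 by Dixon's test. Chance alone gives this in about 1 of 20 groups, so several of these may be chance. The log2 ratio of Stfa1 was 0.678 in replicate 3, with the next mouse at 0.413, and that of Bub1b was -1.26 in replicate 4, with the next at -1.03. In replicate 7 Vpreb3 was 4.40 (next 3.86). Replicate 8 had Ddit3 at -0.226 (next -0.532), Gins2 at -1.11 (next -1.51) and H2-K1 at 1.92 (next 2.58). Replicate 9 had the metallothionein genes Mt1 at -1.71 (next -3.84) and Mt2 at -2.47 (next -4.77), and Lef1 at 1.48 (next 2.0). Groups of over 10 mice, such as the P17 hyperoxia group, were not tested in this way.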

How the results depend on the processing

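The 3539 changed probes became 945 with median centring, 9143 with array weights, 2254 on the first scan day alone and 7 in Cy5 alone, which measures the reference, and lay between 2283 (without P28 replicate 4) and 4323 (without P17 replicate 7) when 1 mouse was left out. Other alternatives stayed within 1.5 times of the main count. The count of probes whose change differed between the arms, 0, became 2 with median centring, 1 with slide as a fixed or as a random block, 1 with scan day as a block, 4871 with array weights, 134 with the erythroid mean and 3087 with the share above background as covariate, and 0 to 4 when 1 mouse was left out; the cause was not tested. Of 114 named genes, 51 kept their side of the threshold under all 18 settings, 49 lost their call under median centring and 32 under software signals. The sign of 1 reversed: Fcer2a was -0.084 with software signals and with the deposited matrix. When 1 mouse was left out, 87 kept their side in all 22 fits, and calls were lost most often for Lcn2, Egln3 and Hadha (16 fits each), Insig1 (15), Add2 (13), H2-Aa and Cdt1 (12 each), Rrm2 (11), Hadh (9), Il7r, Spib and Stfa2 (7 each) and Nars, Vpreb3, Cdk1 and Acot2 (6 each). Cy5 alone was not run for single genes or lists. For the lists, no filter, both covariates and the left-out mice were chosen after seeing the data, as was the value of the detection share in normoxia on the first scan day alone. No paired analysis was possible because the P17 and P28 mice are different animals and their numbers pair nothing.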
